A study of Mus musculus with 101 samples.

Results

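The BCL2 family decides whether a cell opens the outer membrane of its mitochondria and dies, and 10 of its genes known for roles in germ cell death were followed here by symbol: Bax, Bak1, Bok, Bcl2, Bcl2l1, Mcl1, Bcl2l11, Bbc3, Pmaip1 and Bid. All 10 were present among the 15423 genes of the deposited table. BAX, BAK and BOK are the effectors that can form pores in that membrane. BCL2, BCL-XL (encoded by Bcl2l1) and MCL1 are the guardians that hold effectors and activators back. BIM (Bcl2l11), PUMA (Bbc3), NOXA (Pmaip1) and BID are BH3-only proteins, which activate effectors or occupy guardians, and Bbc3 and Pmaip1 are textbook targets of p53. In the fetal mouse gonad, loss of Bax lets germ cells survive that would otherwise be removed.

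Transcripts were measured in primordial germ cells (PGCs) sorted from gonads of E13.5 mouse embryos of the OG2 strain, which carries enhanced green fluorescent protein under Oct4 promoter and enhancer control, so that the sort follows a transgene of pluripotent and germ cells. Pregnant F0 females received benzo[a]pyrene (BaP), a polycyclic aromatic hydrocarbon, in sesame oil or the oil alone as vehicle. The daily doses were 0.033 mg/kg, 0.2 mg/kg and 2 mg/kg, and embryos of the F1, F2 and F3 generations descended from these females were collected. F1 embryos came from a shorter dosing window than the lineages of the F2 and F3 embryos, so generation and window cannot be told apart. Each library came from 1 embryo: 48 females and 53 males in 24 groups of generation, sex and dose. A code in the embryo names, which the labels do not explain, was taken as the dam, giving 56 inferred dams.

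The female F1 groups held 5 vehicle embryos and 2, 5 and 5 at rising dose. F2 females numbered 6 vehicle, 3, 3 and 3, and F3 females 6 vehicle, 4, 2 and 4. F1 males numbered 5 vehicle, 2, 6 and 8. F2 males numbered 6 vehicle, 3, 3 and 3, and F3 males 6 vehicle, 4, 4 and 3. Combined over generations there were 17 vehicle females and 17 vehicle males. At 0.033, 0.2 and 2 mg/kg-day there were 9, 10 and 12 females and 9, 13 and 14 males. By that inference the 48 females came from 48 different dams and the 53 males from 50 dams, with 42 dams giving embryos of both sexes. The labels do not name the dosed F0 female of F2 and F3 embryos. Embryos of different inferred dams may thus descend from the same F0 female, and no fit accounts for this.

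Values are TMM-normalized counts. Read totals could be recovered for 99 libraries and ran from 5.00e+06 to 8.72e+07, with a median of 7.79e+06. Of these, 11 libraries, all F1 and spread over 6 groups, held at least 2.12e+07 reads, while the deepest of the others held 1.22e+07. In the median library 1 normalized count stood for 8.07 reads, so a value below 1 rests on a handful of reads, and a value of 0 allows up to 3 reads. Such limits cover counting error only.

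The labelled cell type was checked with marker lists. The 8 PGC markers were all present, with summed normalized counts of 2895 to 5062 in females and 2649.5 to 6498 in males, and Dppa3 as the most abundant gene in both sexes. In vehicle males against vehicle females, 3 PGC markers were higher, 4 were lower and 1 was not called. The 7 early meiosis genes in the table were all lower in males, with Stra8 at a log2 difference of -7.40 (SE 0.44, adjusted p 1.85e-28). Of 7 XY germ cell genes, 5 were higher in males, 1 was lower and 1 was not called, with Lefty2 at a log2 difference of 6.87. Nanos2 had a median of 0 in females.

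Markers of somatic gonad cells also differed by sex. All 7 Sertoli cell markers tested were higher in males, and their sum was 74.1, 677 and 1304 (lowest, median, highest) in vehicle males against 19.0, 25.9 and 41.4 in vehicle females. Cst9 was the most abundant Sertoli marker in males, with a mean of 410.2 in vehicle males. In vehicle females Aard was the most abundant, and Sox9, Amh, Dhh and Cst9 had medians of 0. Pregranulosa markers (2 higher, 1 lower, 2 not called), fetal Leydig markers (1, 1, 1) and endothelial markers (1, 1, 2) had calls in both directions. The 9 macrophage, 4 erythroid and 3 stroma markers tested were not called. Cells of another type and RNA carried over from them cannot be told apart in sorted bulk samples, and their part in the results below was not tested.

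A few libraries stood apart. D1390.5, a male of the F3 group whose lineage got 0.2 mg/kg-day, had the lowest XY germ cell sum of the 53 males (90.9, where the male median was 218) and 72.4 for the Sertoli sum, where males spanned 46.8 to 2320.3. The F3 vehicle male D3402.3 had the highest early meiosis sum among males, at 1395 against a male median of 524. Erythroid sums had medians of 2.82 in females and 1.20 in males but reached 1653 and 4772 in single embryos.

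Bax was the most abundant member per kilobase of exon in both sexes. In vehicle females its level was 108 ± 15.5 normalized counts per kilobase (mean ± SD, n = 17), followed by Bid at 19.1 ± 4.08 and Mcl1 at 6.86 ± 0.827. The next levels were far lower: Bcl2l11 at 1.25 ± 0.303, Bcl2l1 at 1.03 ± 0.603, Bok at 0.872 ± 0.277, Bbc3 at 0.524 ± 0.335, Pmaip1 at 0.262 ± 0.196 and Bak1 at 0.255 ± 0.109. Bcl2 was lowest, at 0.0428 ± 0.0255. The top 4 levels did not overlap within 1 SD, and neither did Bak1 and Bcl2, while each neighbour from Bcl2l11 down to Bak1 overlapped the next.

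Vehicle males had a different order. Bax stood at 199.8 ± 41.5 normalized counts per kilobase (n = 17), and Pmaip1 took the next place at 34.5 ± 16.2. Bid followed at 14.4 ± 5.40, Mcl1 at 10.1 ± 2.90, Bok at 3.17 ± 1.77 and Bcl2l11 at 1.51 ± 0.407. Bcl2l1 at 0.936 ± 0.573, Bbc3 at 0.515 ± 0.306, Bak1 at 0.405 ± 0.156 and Bcl2 at 0.0425 ± 0.0358 closed the order. Only Bax and Pmaip1, Mcl1 and Bok, and Bak1 and Bcl2 were neighbours without overlap within 1 SD. Among the effectors Bax thus dominated in either sex, and among the guardians Mcl1 did.

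**Figure D1:**
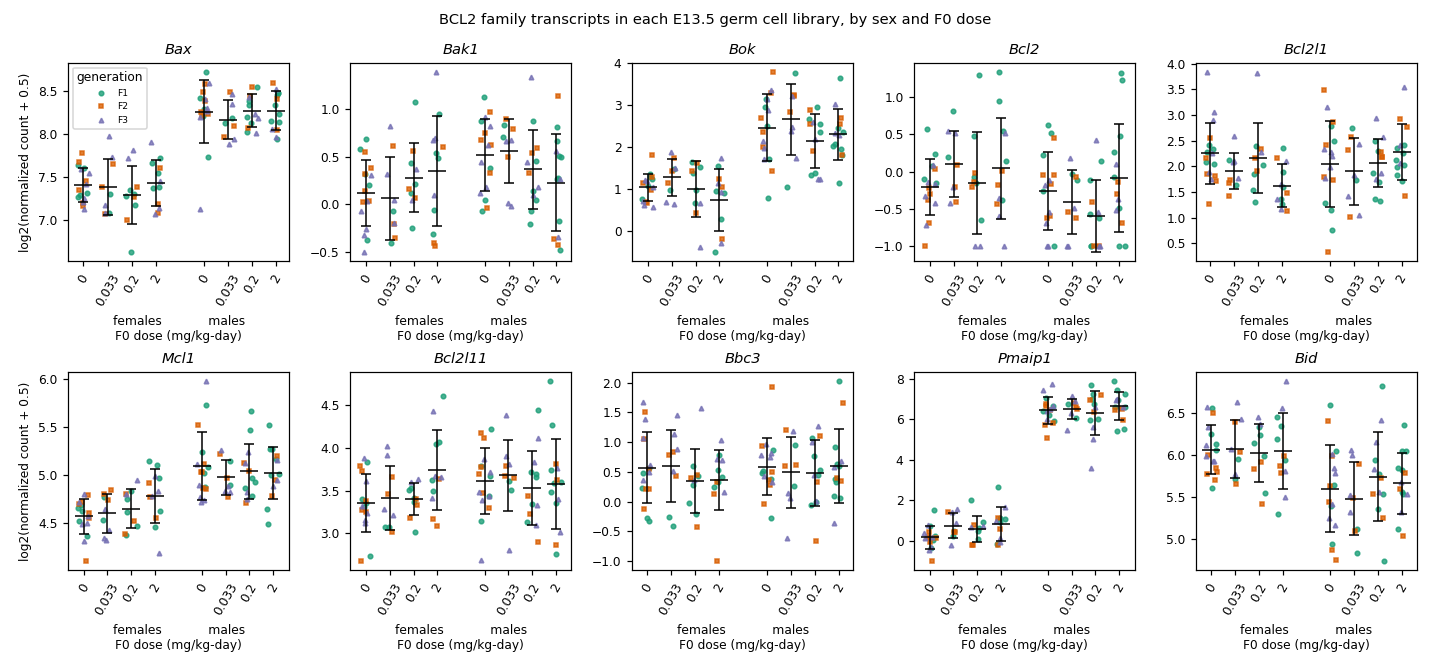
Each point is the log2(normalized count + 0.5) of 1 gene in 1 embryo, with females on the left and males on the right of each panel, F0 dose on the x axis and generation by colour and shape; bars are mean and SD of each sex and dose. Pmaip1 separates the sexes without overlap, Bax, Bok and Mcl1 are mostly higher in males, Bid is mostly lower in males, and the points of each dose overlap those of vehicle embryos.

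The comparison of vehicle males with vehicle females asked which members already differed between the sexes in unexposed germ cells. Of 9 members tested, 6 were called at an adjusted p below 0.05, where 56.5% of all 13288 genes tested were called. A share of 6 in 9 is near that background. The edgeR likelihood ratio and quasi-likelihood tests also called 6, where they called 7469 and 7388 genes. Males were higher for 5 of them (Pmaip1, Bok, Bax, Mcl1, Bak1) and lower for 1 (Bid). The median log2 difference, males minus females, was 0.40 over the 9 members and 0.00 over all genes. Bcl2 fell below the filter on low values, so 9 of 10 members passed it.

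The BH3-only gene Pmaip1 showed the widest separation. Its normalized count was 0, 0.621 and 2.41 (lowest, median, highest) in vehicle females and 33.0, 85.9 and 211 in vehicle males. Every vehicle male was above every vehicle female, and over all embryos the 48 females (0 to 5.83, median 0.859) again lay below the 53 males (11.8 to 234, median 95.5). Only 1 female, the F2 vehicle embryo C4988.3, was at 0. The means were 0.716 ± 0.535 and 94.2 ± 44.3 (SD, n = 17 each), a ratio of 132. The log2 difference was 6.26 (SE 0.24, adjusted p 2.93e-43), with 17 of 17 males above the female median. Sex held 94.4% of the sum of squares of Pmaip1 over all embryos, against 16.1% for the median gene. Pmaip1 lies at chr18:66458533-66465565 on the plus strand (GRCm38, as all positions here).

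Among the effectors, Bax (chr7:45461697-45466898, minus strand) had normalized counts of 139.6, 162 and 219.6 in vehicle females and 139.6, 313 and 422 in vehicle males. The groups overlapped, but 15 of 17 males lay above all females, and the lowest male was D3402.3. The means were 171 ± 24.4 and 315 ± 65.3 (SD, n = 17 each), with a log2 difference of 0.86 (SE 0.09, adjusted p 2.41e-13) and 16 of 17 males above the female median. Bok (chr1:93685660-93695764, plus strand) ran through 0.980, 1.62 and 2.999 in vehicle females and 1.23, 5.19 and 13.4 in vehicle males. Here 13 of 17 males exceeded all females, at a log2 difference of 1.43 (SE 0.22, adjusted p 1.89e-08). Bak1 (chr17:27019810-27029009, minus strand) was scarce, at 0.205, 0.601 and 1.11 in females and 0.455, 1.04 and 1.68 in males. The sexes overlapped widely for Bak1, and 13 of 17 males were above the female median, with a log2 difference of 0.40 (SE 0.15, adjusted p 0.0190).

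Mcl1 (chr3:95658788-95663176, plus strand) was the guardian that differed. Its normalized count was 16.7, 23.8 and 27.3 in vehicle females and 25.8, 32.1 and 62.3 in vehicle males, and 14 of 17 males lay above all females. The log2 difference was 0.52 (SE 0.09, adjusted p 7.05e-07), and 17 of 17 males were above the female median. Bcl2l1 (chr2:152780668-152831728, minus strand) had a log2 difference of -0.20 and was not called (adjusted p 0.411). Bcl2 (chr1:106538178-106714274, minus strand) was near the limit of detection: 4 of 48 females and 13 of 53 males were at 0, and the highest embryo reached 2.02. Fitted without the filter on low values, Bcl2 had a log2 difference of -0.05 (adjusted p 0.850).

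Bid (chr6:120891930-120916853, minus strand) was the member higher in females. Its normalized count was 48.3, 63.7 and 94.5 in vehicle females and 26.5, 48.9 and 96.2 in vehicle males. The ranges overlapped, and 8 of 17 males lay below all females. The log2 difference was -0.47 (SE 0.14, adjusted p 0.00364), with 13 of 17 males below the female median. The BH3-only genes Bcl2l11 (chr2:128126038-128162547, plus strand) and Bbc3 (chr7:16308393-16318205, plus strand) were not called, at log2 differences of 0.25 (adjusted p 0.114) and 0.02 (adjusted p 0.939). Without the F3 vehicle male D1388.1, Bcl2l11 was called at 0.31 (adjusted p 0.0491, where leaving out each vehicle embryo in turn gave 0.0491 to 0.200).

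Annotated exons of 4 members overlap those of another gene. Bid shares 628 exon bases (17.7% of its exons) with Bcl2l13 on the opposite strand, and Bak1 shares exon bases with Ggnbp1, also on the opposite strand. Bax shares 192 exon bases (12.2%) with Gm45808 on the same strand, and Bcl2 shares 558 with the antisense gene D630008O14Rik. The strand setting of the read counting is not given, so reads from these shared bases cannot be told apart.

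**Figure D2:**
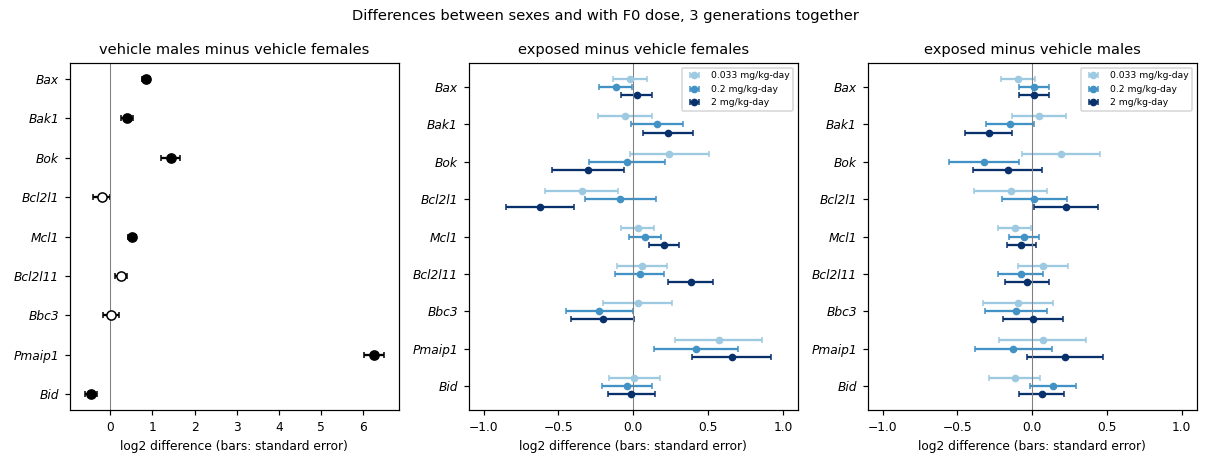
Points are log2 differences with standard errors for the 9 members tested over the 3 generations together: vehicle males minus vehicle females on the left, and each dose minus vehicle in females and in males in the other panels. Filled points in the left panel passed the test (6 of 9 members), and no member passed it in the dose panels, where values lie between -0.62 and 0.66.

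Within generations, the same comparison had fewer embryos. In F1, 3 of 10 members were called where 23.8% of genes were: Pmaip1 at a log2 difference of 5.98, Bax at 0.85 and Mcl1 at 0.62. In F2, 4 of 9 were called against 41.1% of genes: Pmaip1 at 6.08, Bok at 1.502, Bax at 0.93 and Mcl1 at 0.49. In F3, 5 of 9 were called against 32.2% of genes: Pmaip1 at 6.66, Bok at 1.65, Bax at 0.79, Mcl1 at 0.47 and Bid at -0.56. Pmaip1, Bax and Mcl1 were thus called in each generation. Whether the sex difference itself differed between generations was not tested.

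Pmaip1 and Bax in each generation and Mcl1 in F2 kept their calls under each setting and without any 1 embryo. Bok in F2 and F3 did so wherever it was tested, since a filter at a mean of at least 5 leaves it out. The results that follow depended on single libraries or on the test. The F1 Mcl1 call (adjusted p 0.0189) was lost without the 11 deep libraries (0.46, adjusted p 0.141, alternatives 0.00332 to 0.141) and without the vehicle male C3774.3 (0.48, adjusted p 0.0756). F1 Bok was called without C3774.3 (1.44, adjusted p 0.0178), with inferred dam as a block (1.22, adjusted p 0.0151) and in both edgeR tests (1.54, adjusted p 0.0215 and 0.0339), where its alternatives spanned 0.0151 to 0.210. The F3 Mcl1 call (adjusted p 0.0383) was lost in both edgeR tests, with only the compared groups in the model, and without any 1 of 6 vehicle embryos: D1344.3, D1388.3, D3402.1, D3402.3, D3612.2 and D3651.2. The lowest of these values was that without D3402.3, at 0.28 (adjusted p 0.124, where the alternatives spanned 0.0137 to 0.124). The F3 Bid call (adjusted p 0.0363) was lost in both edgeR tests and without any 1 of D1388.3, D3402.3, D3526.1, D3612.1, D3612.2 and D3651.1, at adjusted p 0.0530 to 0.0920. F3 Bak1 had a log2 difference of 0.65 and was not called (adjusted p 0.0502), and was called with dam as a block (0.67, adjusted p 0.0260, alternatives 0.0260 to 0.109). It was also called with a pseudocount of 0.1, with no filter on low values, with only the compared groups, and without any 1 of D1388.1, D3402.3, D3526.1, D1390.1, D2032.3, D2549.1, D3744.1, D4190.2 and E0103.2. F2 Bid was called without the vehicle male D3133.5 (-0.60, adjusted p 0.0176, leaving out each embryo 0.0176 to 0.315), and F2 Bcl2l11 without the vehicle male C4988.2 (0.49, adjusted p 0.0486, leaving out each embryo 0.0486 to 0.286).

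The dose comparisons asked whether F0 exposure altered the family in descendants of the same sex. Over 26 dose comparisons and 240 tests of members, limma called 0 members. At an unadjusted p below 0.05 there were 12 member tests, or 5% of them, against 5.39% of all gene tests in the same comparisons. The lowest adjusted p was 0.0830. The edgeR likelihood ratio test made 1 call and its quasi-likelihood test made 0. Over all genes these 2 tests called 0 to 141 and 0 to 27 genes per comparison. The vehicle groups are shared between doses, so the comparisons are not independent of each other.

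Females at 2 mg/kg-day, all generations together, had the most member tests below an unadjusted 0.05. There limma called 0 of 9 members, where 1.36% of genes (181) were called. The edgeR likelihood ratio test called 141 genes there and the quasi-likelihood test 27. Passing unadjusted were 4 members and 23.3% of all genes (3098). The guardian Bcl2l1 had normalized counts of 1.92, 3.98 and 13.8 in the 17 vehicle females and 1.69, 2.40 and 4.62 in the 12 exposed. The groups overlapped, and 11 of 12 exposed females were below the vehicle median. Its log2 difference was -0.62 (SE 0.22, adjusted p 0.0830), and with only the compared groups in the model the adjusted p was 0.0457 (alternatives 0.0457 to 0.173). These alternatives left out vehicle embryos 1 at a time, but not exposed embryos.

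In the same females Pmaip1 was 0.359, 1.46 and 5.83 in the exposed against 0, 0.621 and 2.41 in vehicle embryos. The groups overlapped, and 9 of 12 exposed females were above the vehicle median. The log2 difference was 0.66 (SE 0.27, adjusted p 0.115), and the edgeR likelihood ratio test gave 1.26 (adjusted p 0.0408, alternatives 0.0408 to 0.392). Exposed females were not left out 1 at a time here either. The highest exposed value, 5.83 in the F1 female C4219.4, was below the lowest male. That embryo had a Sertoli sum of 76.5, of which Aard gave 67.2 and Cst9 gave 0.216. Bcl2l11 had a log2 difference of 0.38 (adjusted p 0.113), with 10 of 12 exposed females above the vehicle median, and Mcl1 had 0.21 (adjusted p 0.200). In this comparison the median log2 difference was 1.68 over 4 erythroid markers and -0.41 over 7 early meiosis genes, with 0 of either called. Of 8 PGC markers, 1 was called higher.

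The lower doses gave smaller counts. In females at 0.033 and 0.2 mg/kg-day limma called 0 members and 0% of genes, and either edgeR test called 0 members. Passing an unadjusted 0.05 were 0 members, and 2.08% and 1.05% of genes. Females of all doses against vehicle females also had 0 members called and 0% of genes, with 8.67% of genes (1152) and 1 member unadjusted: Pmaip1 at a log2 difference of 0.55 (adjusted p 0.563), with 24 of 31 exposed females above the vehicle median. Males at 0.033, 0.2 and 2 mg/kg-day and males of all doses had 0 members called and 0% of genes, and 0 members by edgeR. Unadjusted, 0 members passed, and 4.67%, 3.36%, 3.91% and 1.14% of genes did. Pmaip1 in males was 33.0, 85.9 and 211 at vehicle, 44.2, 97.2 and 142 at 0.033, 11.8, 95.4 and 206 at 0.2, and 42.3, 96.5 and 234 at 2 mg/kg-day. All of these ranges overlapped. The effect of all doses in females minus that in males was called for 0 members and 0% of genes, with 0 members and 1.96% of genes unadjusted and 0 members by edgeR. For Pmaip1 that difference between the sexes was 0.50 (SE 0.30, adjusted p 0.999).

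Bax kept close to its vehicle level at each dose. Female means were 171 ± 41.6 at 0.033 (n = 9), 160.0 ± 36.6 at 0.2 (n = 10) and 175 ± 33.5 at 2 mg/kg-day (n = 12), against 171 ± 24.4 in vehicle females. Male means were 290.3 ± 46.3, 312 ± 41.0 and 313 ± 47.7 (n = 9, 13 and 14) against 315 ± 65.3. Each pooled difference was smaller than the SD of either group compared. Pooling hid a spread between generations: at 0.2 mg/kg-day the 5 F1 females spanned 98.2 to 163, while the 2 F3 females had 225 and 210. A difference that misses the threshold does not show that levels were the same.

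Within F1, limma called 0 members at each dose in either sex, where 0.00733% of genes (1 gene) were called in females at 2 mg/kg-day and 0% in the other 5 comparisons. Only Bcl2l11 in females at 2 mg/kg-day passed an unadjusted 0.05, as 9.89% of genes did there, at a log2 difference of 0.64 (adjusted p 0.474), with 5 of 5 exposed above the vehicle median. There the 4 erythroid markers had a median log2 difference of 1.48 and the 7 early meiosis genes -0.86, with 0 called. Within F2, 0 members were called, against 0.145% of genes (19) in males at 0.2 mg/kg-day and 0% in the other 5 comparisons. In F2 females at 0.033, Pmaip1 passed unadjusted (0.77, leaving out each embryo 0.44 to 0.94), as 3.39% of genes did. Erythroid sums there were 229, 617 and 618, against 0, 2.03 and 223 (lowest, median, highest) in F2 vehicle females. In F2 males at 0.2 mg/kg-day, Pmaip1 (0.77) and Bcl2l11 (-0.57) passed unadjusted, as 9.58% of genes did. Fitted without the filter, Bcl2 also passed unadjusted in these males, at -0.63 (adjusted p 0.305). In the same F2 males the median log2 difference was -1.77 over 7 Sertoli markers (1 called lower), -1.47 over 9 macrophage markers, and -1.41 over both 3 fetal Leydig and 4 erythroid markers. Within F3, limma called 0 members and 0% of genes in each of 6 comparisons, while the edgeR likelihood ratio test called 91 genes in males at 0.2 mg/kg-day and 22 in females at 0.033. In F3 females at 2 mg/kg-day, Bak1 (0.85) and Bcl2l1 (-1.04) passed unadjusted, both at an adjusted p of 0.243, where 15.4% of genes (2018) did. In F3 males at 0.2 mg/kg-day, Pmaip1 passed unadjusted, where 10.6% of genes did. No edgeR test called a member in these 18 comparisons.

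The widest F3 difference was that of Pmaip1 in males at 0.2 mg/kg-day. Its 4 values were 11.8, 32.0, 48.4 and 95.4, against 63.7, 94.6 and 211 (lowest, median, highest) in 6 vehicle males. The 4 exposed males came from 3 inferred dams, since D1390.1 and D1390.5 share a code. The exposed males were mostly low, with 3 of 4 below the vehicle median, and the groups overlapped. Their Sertoli sums were 72.4, 268 and 457, against 78.4, 777 and 1304 in the vehicle males. Over males of all doses, r of Pmaip1 with that sum was -0.481 in F1, -0.294 in F2 and 0.490 in F3, so its sign was not shared. The log2 difference was -1.57 (adjusted p 0.156). Leaving out the male D1464.2 gave -2.03 (adjusted p 0.0138), and leaving out D1390.5, which has the lowest Pmaip1 and the lowest XY germ cell sum, gave -1.04 (adjusted p 0.787). Without D1464.2 the exposed males are D4021.2 and the pair D1390.1 and D1390.5, which share an inferred dam. The alternatives spanned an adjusted p of 0.0138 to 0.787.

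Between vehicle embryos of different generations, 0 of 9 members and 0% of genes were called in F2 minus F1, F3 minus F1 and F3 minus F2. Of the 9, only Bbc3 in F3 minus F1 passed an unadjusted 0.05, as 7.72% of genes did, at 0.54 (adjusted p 0.578), and no edgeR test called a member. Fitted without the filter, Bcl2 also passed unadjusted and was not called, at -0.51 in F3 minus F1 (adjusted p 0.426) and -0.37 in F2 minus F1 (adjusted p 0.747). In all females, generation held 28.5% of the sum of squares of Bbc3 and 26.8% of that of Bcl2, against 5.98% for the median gene. In all males no member exceeded 8.99%, that of Bcl2. Dose held 19.4% for Bcl2l1, 17.0% for Bcl2l11 and 16.0% for Pmaip1 in females, against 6.53% for the median gene. Mcl1 (13.3%), Bok (10.7%) and Bak1 (6.91%) were also above that median, while Bcl2 (5.87%), Bbc3 (4.11%), Bax (3.42%) and Bid (0.241%) were below it. In males dose held 10.8% for Bcl2, 9.38% for Bak1 and 5.93% for Bok, against 4.89% for the median gene, and the other members were below that.

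The balance between members also differed by sex. The log2 ratio of Bax to Mcl1 per kilobase was 3.95 ± 0.285 in vehicle females and 4.29 ± 0.615 in vehicle males (mean ± SD, n = 17 each), so both transcripts were higher in males and their ratio overlapped. That of Bax to Bid was 2.51 ± 0.321 in vehicle females and 3.83 ± 0.499 in vehicle males, apart by more than either SD. The ratio of NOXA to its binding partner MCL1 at the transcript level, Pmaip1 to Mcl1, was -4.07 ± 0.591 in vehicle females and 1.66 ± 0.683 in vehicle males. Pmaip1 was thus the scarcer of the pair in vehicle females and mostly the more abundant in vehicle males. At 2 mg/kg-day that ratio was -3.62 ± 0.736 in females (n = 12) and 1.95 ± 0.847 in males (n = 14). Both means were within 1 SD of the vehicle means, though the highest values, -2.16 and 3.56, exceeded the vehicle ones, -2.76 and 3.01. The ratio of Bax to Bcl2l1 was 7.34 ± 0.432 in females at 2 mg/kg-day and 6.70 ± 0.666 in vehicle females, with overlapping ranges. In males it was 7.54 ± 0.515 and 7.76 ± 0.964. Differences in ratios were not tested.

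Members were set against the summed markers across embryos of 1 sex, in 70 correlations of which 8 had both adjusted p below 0.05. In the 48 females, each from a different inferred dam but of unknown F0 ancestry in F2 and F3, Bax was lower where the early meiosis sum was higher (Pearson r -0.767, Spearman rho -0.718). Both permutation p were 1e-05, the smallest that 100000 permutations can give, and the adjusted p were 7.00e-04 and 4.67e-04. Without the 2 embryos farthest from the median of the sum, r was -0.732, and within F1, F2 and F3 it was -0.705, -0.748 and -0.820. Bax was thus lower where the meiosis sum was higher in every generation. Many genes followed this sum in either direction: of 13270 genes outside the list, 9.50% had an r at least as far from 0 as that of Bax, and the median distance of r from 0 was 0.392.

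The BH3-only genes Bbc3, Bid and Bcl2l11 had the same sign against the early meiosis sum in females. For Bbc3, r was -0.621 and rho -0.615 (permutation p 2e-05 each, adjusted p 7.00e-04 and 4.67e-04), and r was -0.565 without the 2 farthest embryos. Within generations its r was -0.717, -0.437 and -0.611. For Bid, r was -0.533 and rho -0.615 (permutation p 1.1e-04 and 2e-05, adjusted p 0.00193 and 4.67e-04), and r was -0.482 without the 2 farthest. Its r was -0.107 in F1, -0.572 in F2 and -0.792 in F3, so the relation was weak in F1. For Bcl2l11, r was -0.499 and rho -0.557 (permutation p 2.5e-04 and 8e-05, adjusted p 0.00350 and 9.33e-04), with -0.481 without the 2 farthest and -0.394, -0.301 and -0.722 within generations. Of all genes, 23.4%, 33.1% and 36.8% had an r at least as far from 0 as Bbc3, Bid and Bcl2l11, so these relations are not particular to the members. Pmaip1 did not pass on both measures, at r -0.362 (adjusted p 0.0792) and rho -0.472 (adjusted p 0.00761).

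**Figure D3:**
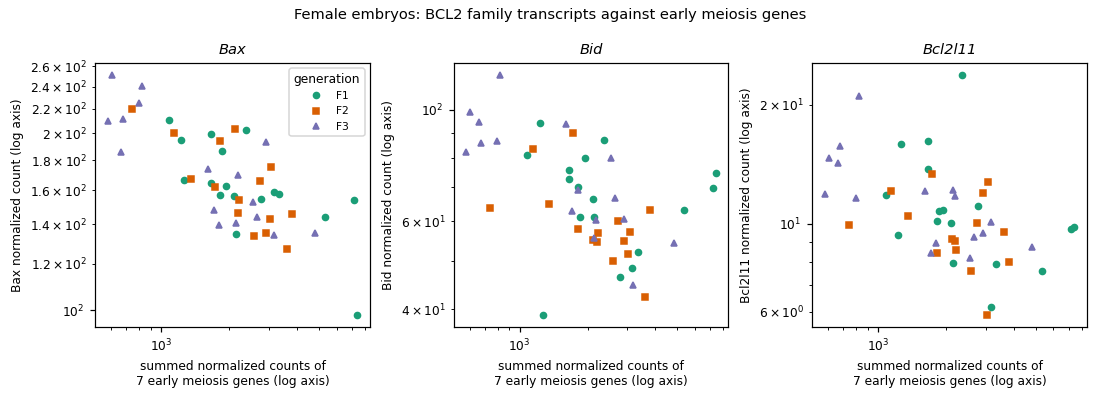
Normalized counts of Bax, Bid and Bcl2l11 (y axes, log scale) against the summed normalized counts of 7 early meiosis genes (x axes, log scale) in the 48 female embryos, coloured by generation. The early meiosis sum spans 579.8 to 7426, and the points slope downward, most closely for Bax (r -0.767).

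In the 53 males, 4 relations passed. Against the Sertoli sum, Bok had r 0.478 and rho 0.483 (permutation p 3e-04 and 3.6e-04, adjusted p 0.00350 and 0.00360), with r 0.445 without the 2 farthest males and 0.490, 0.444 and 0.554 within F1, F2 and F3. Bok also rose with the macrophage sum (r 0.429, rho 0.412, permutation p 0.00144 and 0.00221, adjusted p 0.0144 and 0.0172), at 0.486 without the 2 farthest and 0.659, 0.236 and 0.426 within generations. Bid went the other way against the Sertoli sum, at r -0.531 and rho -0.534 (permutation p 5e-05 and 6e-05, adjusted p 0.00117 and 8.40e-04). Its r was -0.560 without the 2 farthest and -0.631, -0.309 and -0.649 within generations. Bak1 had r 0.380 and rho 0.529 (permutation p 0.00483 and 4e-05, adjusted p 0.0423 and 7.00e-04), with 0.480 without the 2 farthest and 0.683, 0.388 and 0.0598 within generations, so that it was near 0 in F3. Against the Sertoli sum, 5.29%, 8.41% and 18.9% of 13281 genes had an r at least as far from 0 as Bid, Bok and Bak1, and against the macrophage sum 2.15% of 13279 genes did as Bok. Pmaip1 did not pass against the Sertoli sum (r 0.0193, rho -0.187, adjusted p 0.957 and 0.440). The 53 males come from 50 inferred dams, so a few points may share a litter, and F2 and F3 males may share an F0 female.

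Across the 48 female and 53 male embryos with group means removed, the genes most like each of the 5 members with a mean of at least 5 were searched among 6768 genes. Of these members, Pmaip1 met that mean only through males (mean 99.1, against 1.15 in females). Closest to Bax were Exosc5 (r 0.847), Pmm1 (0.844) and Ruvbl2 (0.809). Closest to Mcl1 were Sox2 (0.784), Zfp36l2 (0.743) and Mycn (0.738). For Bcl2l11 they were Rhox5 (0.782), Auh (0.765) and Aurkc (0.734), and for Bid Psmd11 (0.874), Actl6a (0.861) and Mrs2 (0.855). Pmaip1 had its closest genes in Siglec5 (0.729), Zfp277 (0.617) and Lrrfip1 (0.614). These values include 48 females in which Pmaip1 was near the floor, so no conclusion is drawn from them. Among the members themselves Bax and Bid had r 0.493, Bax and Mcl1 -0.302, and Bax and Pmaip1 0.0376, the last with the same limit.

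The other genes of the death pathway were counted in the same comparison of vehicle males with vehicle females, where 56.5% of all genes were called and their median log2 difference was 0.00. A list of other BCL2 family and BH3-only genes also held genes outside the family, such as Vdac1. Of its 18 genes tested, 4 were higher in males, 3 were lower and 11 were not called (median -0.03). Vdac1, a channel of the outer mitochondrial membrane, had a log2 difference of 1.27, Bnip2 of 0.63, Moap1 of 0.40 and the BH3-only gene Bmf of -0.62. Of 12 apoptosome, mitochondrial factor and IAP genes, 3 were higher, 5 lower and 4 not called (median 0.00). The protease gene Htra2 had 1.15 and Birc3 0.76, whereas the caspase inhibitor gene Xiap had -0.86 and Cyct, a cytochrome c of the testis, -0.67.

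Among the caspases and nucleases, the initiator caspase gene Casp8 had a log2 difference of 1.11 and Parp2 of 0.32, both called. Casp6 was higher in females, at 194 ± 50.6 normalized counts against 90.0 ± 22.8 in males (SD, n = 17 each), a log2 difference of -1.102 (SE 0.14, adjusted p 1.53e-11). All 7 death receptor genes tested were not called (median 0.13). Of 22 genes of the p53 family, its kinases and targets, 5 were higher, 6 lower and 11 not called (median -0.02). Btg2 had 1.45 and Trp63 1.42, while Perp had -1.93 and Sesn1 -0.90.

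BaP is a ligand of the aryl hydrocarbon receptor. Of 5 genes of that receptor tested, 1 was higher in vehicle males, 3 were lower and 1 was not called (median -0.41): Nqo1 had a log2 difference of 0.45, Tiparp of -1.27, Cyp1b1 of -0.63 and Ahr itself of -0.41. None of the 5 was called in females at 2 mg/kg-day. Of the pathway lists, Mtch2 and Tradd passed the test in those females, where 1.36% of all genes did. Mtch2, which encodes a mitochondrial receptor for BID, rose from 618 ± 100.5 normalized counts (n = 17) to 817 ± 149 (n = 12), a log2 difference of 0.40 (SE 0.11, adjusted p 0.0481). Tradd, a death receptor adaptor gene, decreased from 2.18 ± 0.712 to 1.16 ± 0.845, a log2 difference of -0.82 (SE 0.23, adjusted p 0.0481). Several listed genes are not in the table and were not analysed here: Bcl2a1a, Bcl2a1d, Bcl2l10, Bnipl, Casp4, Casp12, Casp14, Tnf, Pidd1, Ahrr and Cyp1a2.

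RefSeq promoters (GRCm38.p6, 250 bases before to 50 after each transcript start) were searched for the core letters of that receptor, GCGTG, on either strand. Windows were found for 9 members, all but Pmaip1, 14 in all, and 6 of these (42.9%), belonging to 3 members, held the letters. Of all 32851 promoter windows 32.4% held them, and 11.1% held them at least 2 times. The members with the letters were Bbc3, Bcl2l11 and Bcl2l1. A match is a description of these letters and no evidence of binding. Limma called none of the 3 in a dose comparison, although Bcl2l1 had an adjusted p of 0.0830 in females at 2 mg/kg-day (0.0457 with only the compared groups, alternatives 0.0457 to 0.173). The Bax window at chr7:45466849-45467148 held 0 matches. Bases outside the windows were not searched, so a window without a match does not show that a gene lacks such letters elsewhere. The pair of windows with most matches is shown, since BaP is the agent given, with capitals marking GCGTG or its reverse complement CACGC. The Bbc3 window at chr7:16309333-16309632 on the plus strand has 4, and the Bcl2l11 window at chr2:128125788-128126087 on the plus strand has 3.
Bbc3: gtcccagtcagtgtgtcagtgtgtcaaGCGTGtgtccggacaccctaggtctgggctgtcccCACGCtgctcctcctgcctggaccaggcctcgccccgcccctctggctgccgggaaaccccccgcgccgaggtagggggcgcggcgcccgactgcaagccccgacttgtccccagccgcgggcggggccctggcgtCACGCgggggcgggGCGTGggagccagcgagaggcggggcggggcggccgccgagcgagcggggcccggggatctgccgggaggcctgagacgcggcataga
Bcl2l11: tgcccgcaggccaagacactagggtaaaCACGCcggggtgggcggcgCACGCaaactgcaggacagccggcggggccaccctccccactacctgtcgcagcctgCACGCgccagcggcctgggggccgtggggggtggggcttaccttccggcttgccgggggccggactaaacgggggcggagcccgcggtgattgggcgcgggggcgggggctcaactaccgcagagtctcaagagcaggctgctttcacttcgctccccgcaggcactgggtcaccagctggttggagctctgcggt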

How the data were processed

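The authors trimmed reads with Trim Galore, aligned them with STAR to mm10, counted them per gene and normalized the counts by TMM in edgeR. The deposited signal values are these normalized counts, which the authors made without a log step; tool versions are not given. On them, limma 3.58.1 (R 4.3.3) was fitted to log2(value + 0.5) of genes with a mean of at least 0.5, with empirical Bayes and trend, over 8 sex-by-dose groups of all embryos or of 1 generation; vehicle generations were fitted with sex and generation. All p are two-sided, adjusted by Benjamini-Hochberg over all genes of a comparison and called below 0.05. The edgeR 4.0.16 tests used whole reads recovered in 99 libraries (all values within 0.05 read of a whole number). The pseudocount narrows differences of scarce genes such as Pmaip1 in females. Exon lengths come from the GENCODE annotation of GRCm38; python 3.11.15, numpy 2.4.6, pandas 2.3.3, scipy 1.17.1 and matplotlib 3.10.9 made the descriptions and correlations.

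Dams were inferred from a code in the embryo names that the labels do not explain. In 15 inferred vehicle brother and sister pairs the median correlation of deviations from group means over 2000 genes was 0.338 (-0.415 to 0.739, above 0.1 in 11 pairs), against -0.00777 between inferred litters. The estimated correlation of embryos of an inferred dam was 0.262 over all generations, 0.382 in F1, 0.0532 in F2, 0.225 in F3 and 0.210 in vehicle embryos, and dam was used as a block in an alternative.

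The members and the lists were chosen with earlier results of these data known. Genes named are the 10 members; in each pathway list up to 4 with the largest log2 difference among those called between vehicle sexes and those called at a dose; the 3 most like each member; the most abundant gene of each marker list; and germ cell markers that check the cell type. Pathway lists cover other BCL2 family and related genes, apoptosome and IAP genes, caspases and nucleases, death receptors, p53 genes and aryl hydrocarbon receptor genes. Marker lists cover PGC, early meiosis, XY germ cell, Sertoli, pregranulosa, fetal Leydig, endothelial, macrophage, erythroid and stroma genes.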

Additional observations from a re-analysis of the deposited data

Results flagged for a closer look

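In groups of 4 to 10 embryos, 140 combinations of gene and group were examined for 1 embryo set far from the others by Dixon's criterion. Of these, 11 (7.86%) met it. The criterion's rate of about 1 in 20 holds for normally distributed values. Unlogged normalized counts were used here, so the share cannot be compared with that rate. All 11 are the highest embryo of their group, and causes were not tested. Mcl1 has 3 of them, all males: 45.4 normalized counts in D3001.1 (F2 vehicle), 37.7 in D2549.3 (F3, 0.033 mg/kg-day) and 62.3 in D3402.3 (F3 vehicle). D3402.3 also had the lowest Bax of the 53 males, 139.6, and the highest early meiosis sum, 1395.

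Pmaip1 has 2, both F1 females: 3.54 in C4228.3 (0.2 mg/kg-day) and 5.83 in C4219.4 (2 mg/kg-day). Both are among the 11 libraries of at least 2.12e+07 reads, at 3.49e+07 and 3.22e+07 reads, and their Pmaip1 values rest on 102 and 162 reads. Their Sertoli sums were 81.2 and 76.5, of which Aard gave 71.4 and 67.2, where the female median sum was 26.9. C4258.2 and C4242.1, also deep F1 females, had Sertoli sums of 116 and 78.1 with Pmaip1 at 1.62 and 1.39. The remaining deep F1 female, the vehicle embryo C4232.9, had 35.0 and 0.297. Bbc3 has 2, both males: 3.56 in D2593.1 (F1, 2 mg/kg-day) and 3.29 in D3001.1 (F2 vehicle). Bok reached 11.98 in the male D2582.2 (F1, 2 mg/kg-day). Bcl2l1 reached 8.37 in the male D1388.1 (F3 vehicle), which also has the highest erythroid sum, 4772. Bcl2l11 reached 21.3 in the male C4228.1 (F1, 0.2 mg/kg-day), and Bid reached 90.0 in the female C4992.1 (F2 vehicle).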

How the results depend on the processing

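Counts of members called were recomputed with other pseudocounts, filters, scalings, edgeR tests, dam as a block, and without deep or doubtful libraries. Of 389 such counts 385 stayed within 1.5 times the reported one, and in most of these a count of 0 stayed at 0. For females at 2 mg/kg-day the count of 0 became 1 with the edgeR likelihood ratio test (Pmaip1) and 1 with only the compared groups (Bcl2l1). For F3 vehicle sexes the count of 5 became 3 in both edgeR tests (Bax, Bok, Pmaip1). Embryos were also left out 1 at a time: each embryo within a generation, but only vehicle embryos in comparisons over all generations. Dose results over all generations were thus not refitted without each exposed embryo. Of these counts, 1146 stayed within that range and 3 did not. F3 vehicle sexes ranged from 3 to 6, at 3 without D1388.3 or D3612.2, and F3 males at 0.2 mg/kg-day from 0 to 1, at 1 without D1464.2. The causes were not tested. The count for vehicle sexes over all generations was 4 to 6 under the settings, 4 with a mean of at least 5 (Bok and Bak1 are then filtered out), and 6 to 7 leaving out each vehicle embryo.

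Log2 differences of members were followed only for the vehicle sexes and where the reported test had an unadjusted p below 0.05, so most dose differences are not among them. Of 545 such values under other settings, 530 kept their direction and side of the threshold, 9 passed it, 6 no longer did and 0 changed sign. With embryos left out as described above, 18 changed sign, none of them of a called difference: Bbc3 over all generations (-0.0633 to 0.0893) and in F2 (-0.161 to 0.281), Bcl2 in F1 (-0.256 to 0.149), Bcl2l1 in F2 (-0.0734 to 0.559) and Bcl2l11 in F3 (-0.0484 to 0.187). The scalings shifted the median of all genes by at most 0.0903. Depth limits Bcl2, Bak1, Bbc3 and female Pmaip1 most, with values mostly below 1.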

Other observations

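D3402.1 and D3402.3, an F3 vehicle female and male, share an inferred dam. The female had 23.3 normalized counts of Mcl1 and 170.0 of Bax, both inside the range of the other vehicle females, while the male had the highest Mcl1 of all embryos, 62.3, and the lowest Bax of all males, 139.6. The Pmaip1 of this male was 211 and its Stra8 was 0.585. The male D1390.5, with the lowest Pmaip1 of all males, 11.8, had Stra8 at 14.7 and Bax at 291.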
